A study of Mus musculus with 5 samples.

Results

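PU.1 binding was described around 10 mouse genes of type 1 conventional dendritic cells (cDC1s) and of cross-presentation: Wdfy4, Rab43, Xcr1, Cadm1, Anpep, Naaa, Ppt1, Gcsam, Snx22 and Tbc1d8. The genes were taken by name and not by a measured value, but with earlier results of these data known. Their loci were taken as the gene span in mm10 with 20 kb on each side. All 10 loci held signal, as did 16240 of all 21887 protein-coding loci. Together the 10 held 103 of 60527 PU.1 sites. Chromatin immunoprecipitation with sequencing (ChIP-seq) was done with the PU.1 antibody T-20 on plasmacytoid dendritic cells (pDCs) and on conventional ones (cDCs). Both cell types came from Flt3L cultures and from a strain labelled C56BL/6, and no genetic change or further treatment was named for either. Each cell type had 2 biological replicates. A single input library, made without antibody from cDCs, served for both cell types. The labels did not divide the cDCs into subsets, so the cDC signal is an average over whatever share of cDC1s the cultures held.

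cDC1s take up dead cells and other outside antigen and display its peptides on MHC class I to CD8+ T cells, which is called cross-presentation. pDCs are known for type I interferon release in response to nucleic acids. PU.1, encoded by Spi1, is an ETS-family factor that binds DNA around a GGAA core and acts in the development of myeloid cells, dendritic cells and B cells. A PU.1 site near a gene says where the factor was bound and nothing of how much the gene was transcribed.

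Of 14 promoter entries of these genes, 3 lay under a PU.1 site. They belong to Wdfy4, Gcsam and Rab43 and are printed because PU.1 signal was measured over them. Of all 32851 mouse promoter entries, 17.5% lay under a site. RefSeq promoter entries (GRCm38.p6, which shares its coordinates with mm10; 250 bases before to 50 after a start) matched 9 of the 10 genes, with 14 entries. None matched Cadm1, so its promoter was not scored. Capitals mark the GGAA core on either strand, so that TTCC is the same core read from the other strand. The Wdfy4 promoter is chr14:33185017-33185316 and one of 4 Rab43 promoters is chr6:87812049-87812348, both on the minus strand. The Gcsam promoter is chr16:45610190-45610489 on the plus strand. Each is written 5′ to 3′ in the direction of its gene.
Wdfy4: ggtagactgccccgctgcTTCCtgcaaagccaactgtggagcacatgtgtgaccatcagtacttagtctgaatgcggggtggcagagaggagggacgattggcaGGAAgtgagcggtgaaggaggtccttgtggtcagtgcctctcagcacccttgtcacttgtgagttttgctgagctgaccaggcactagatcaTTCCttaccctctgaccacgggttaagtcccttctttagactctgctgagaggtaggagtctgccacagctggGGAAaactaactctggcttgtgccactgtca
Gcsam: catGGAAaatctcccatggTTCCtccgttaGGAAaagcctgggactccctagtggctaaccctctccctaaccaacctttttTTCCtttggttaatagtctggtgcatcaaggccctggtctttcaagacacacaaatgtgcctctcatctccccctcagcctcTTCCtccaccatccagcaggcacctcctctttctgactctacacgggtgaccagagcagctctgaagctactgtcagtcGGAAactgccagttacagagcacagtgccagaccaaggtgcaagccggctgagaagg
Rab43: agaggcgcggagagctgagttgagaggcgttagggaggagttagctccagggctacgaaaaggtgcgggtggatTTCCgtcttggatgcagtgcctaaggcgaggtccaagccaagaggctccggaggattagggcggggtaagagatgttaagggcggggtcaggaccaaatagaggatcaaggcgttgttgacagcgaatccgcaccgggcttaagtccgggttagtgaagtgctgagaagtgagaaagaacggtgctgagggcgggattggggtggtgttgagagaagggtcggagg
The GGAA core was present in 96.0% of all mouse promoters of this length, and in 99.0% of the 5737 that lay under a site. Neither the PU.1 motif GAGGAAGT, the ETS-IRF composite (GGAA, any 2 bases, then GAAA) nor the AP-1 motif TGANTCA occurred on either strand in any of the 14 entries. Only exact matches to these letters were sought, so variants such as the caGGAAgt of the Wdfy4 promoter were not counted. Over all promoters those motifs were found in 3.2%, 2.7% and 7.8%, and under a site in 8.1%, 3.6% and 5.0%. The first and second of them contain the GGAA core, so these shares overlap. Over the printed Gcsam promoter the strongest window, at 45610451, had 4.57 and 3.46 CPM (read counts relative to a library size adjusted by the TMM method) in cDC replicates 1 and 2 and 1.06 and 1.93 in pDC replicates 1 and 2. Both cDC libraries were above both pDC libraries there. The site itself was valued by its strongest window, at 45610501, which lies just beyond the printed promoter. The log2 fold of that window, -1.17 ± 0.41, was not called (edgeR adjusted p = 0.0537). Over the Wdfy4 promoter the strongest window, at 33185201, had 2.29, 2.42, 2.90 and 2.41 CPM in the same order, and over the Rab43 promoter the only window had 1.28, 1.04, 1.19 and 1.29. In these last windows the cell types overlapped, at Wdfy4 by a narrow margin. Of the 5 Wdfy4 promoter windows, 3 had no overlap, 1 with the cDC libraries higher and 2 with the pDC libraries higher. Neighbouring windows can hold the same reads, so they are not separate results. At 57.4% of all sites the cell types had no overlap either.

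The deposited values are read counts in windows of 10 bp, and the totals over windows were 11034858 and 11388554 in cDCs, 8099633 and 6896416 in pDCs and 2776490 in the input. These totals are not the sequencing depth, which is unknown, because a read can fall in several windows. Across all sites the log2 CPM values correlated at r = 0.926 between the cDC replicates and at r = 0.848 between the pDC replicates. Both pDC libraries correlated with the cDC libraries less than with each other, pDC replicate 1 at 0.654 and 0.669 and pDC replicate 2 at 0.748 and 0.770. A set of 146 repeat windows with at least 1000 input counts held 18.0% of the counts of pDC replicate 2 and 9.16% to 10.5% of those of the other PU.1 libraries. Chosen by their input counts, they held 74.6% of those of the input. Among loci of textbook markers, chosen with earlier results known, 5 of 10 pDC marker loci were higher in pDCs and none in cDCs, and 3 of 6 cDC1 marker loci were higher in cDCs and none in pDCs. Over all loci 11.0% were called higher in pDCs and 7.87% higher in cDCs. At an unadjusted p under 0.05, and with DESeq2, 0 loci of either marker list were on the opposite side. With library sizes from the repeat windows edgeR called 0 loci of both lists, and 1 of each had an unadjusted p under 0.05. The cDC1 markers include Xcr1 and Cadm1 of the 10 genes, and Cadm1 is 1 of the 3 called. As in any bulk sample, fewer cells of a type and less binding per cell cannot be told apart.

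**Figure D1:**
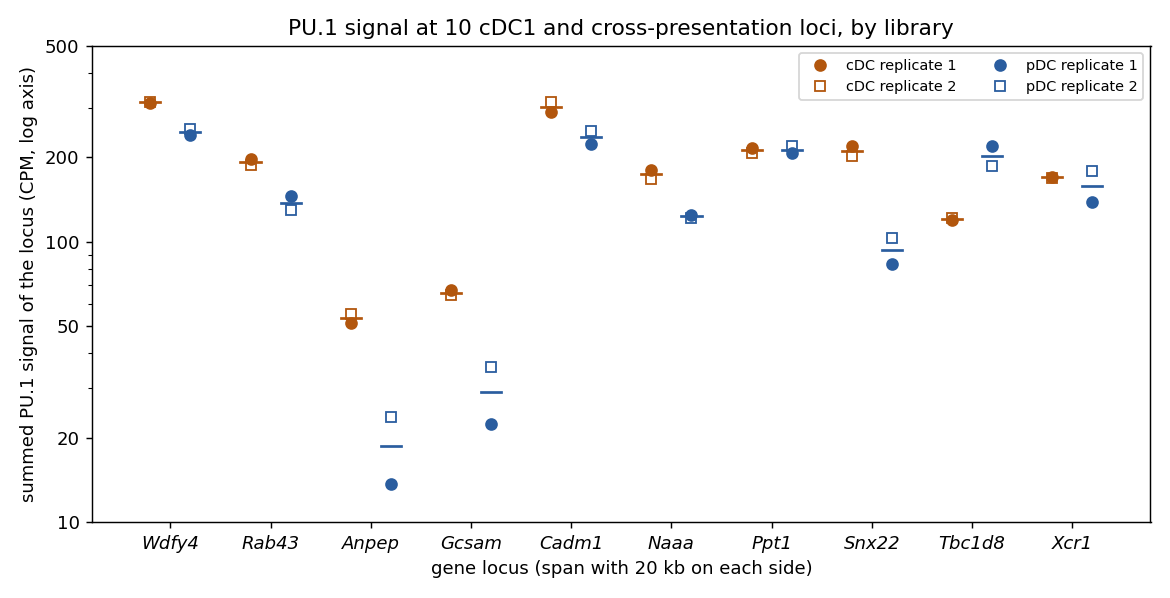
PU.1 signal over the 10 gene loci. Points are single libraries (2 cDC in brown, 2 pDC in blue), horizontal lines are the means of each cell type, and the y axis is CPM on a log scale. The gap between the cell types is widest at Anpep (51.4 and 55.5 against 13.7 and 23.8 CPM), and at Tbc1d8 both pDC points are above both cDC points.

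The first comparison asked whether the PU.1 signal over each whole locus differed between the cell types. The signal of a locus is the sum of its windows, and a locus was called at an edgeR quasi-likelihood adjusted p under 0.05. Log2 folds are pDC minus cDC with an SE (n = 2 libraries per cell type). For loci and sites alike this SE was derived from the fold and the F statistic of the edgeR test, so it is not a separate measure of spread. Of the 10 loci, 7 were higher in cDCs, 1 was higher in pDCs and the other 2 missed the threshold. The share called among all loci was 18.9%, with 7.87% higher in cDCs and 11.0% higher in pDCs. The cDC side held Anpep, Gcsam, Snx22, Naaa, Rab43, Cadm1 and Wdfy4, with log2 folds from -1.52 to -0.35. The pDC side held Tbc1d8, and Ppt1 and Xcr1 were not called. The median over all loci was 0.05, and it was -0.08 with plain library totals in place of TMM factors. That scaling turned the split over all loci from 1792 pDC and 1278 cDC calls to 1025 and 1803, and left 7 cDC calls and 1 pDC call among the 10. The loci share signal with their neighbours to different extents: every window of Rab43, Gcsam, Naaa and Snx22 also lay within 20 kb of another gene, while none of Anpep or Cadm1 did. All 8 calls ended when library sizes were taken from the repeat windows instead, where edgeR called 96 of all loci and 3 of the 10 had an unadjusted p under 0.05, and 5 of them (Wdfy4, Rab43, Cadm1, Naaa and Tbc1d8) ended when a fold of at least 1.5 was asked for.

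The second comparison took single sites, each valued by its strongest window. Of the 103 sites, 22 were called, 18 higher in cDCs and 4 higher in pDCs, which is 17.5% and 3.88% of them. Over all sites 16.5% were called, 7.01% higher in cDCs and 9.51% higher in pDCs. With plain library totals the split was 4676 pDC and 5666 cDC calls over all sites, in place of 5756 and 4241, and 4 and 24 over the 103. The median log2 fold was -0.48 over the 103 sites and 0.03 over all sites. In 67 of the 103 sites (65%) the cDC libraries and the pDC libraries did not overlap, against 57.4% of all sites. The called cDC sites had a median level of 2.68 CPM (range 1.03 to 29.3), the called pDC sites one of 3.90 CPM (1.62 to 7.05) and the sites not called one of 1.97 CPM (0.722 to 24.0). The input had between 0 and 5 counts at the strongest window of each site (median 2), and the exact Poisson 95% upper limit for 5 counts is 11.7, which covers counting error only. The repeat windows held 74.6% of the input counts, and the input was not scaled to the PU.1 libraries. Its counts beside theirs therefore give no fold over input.

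The strongest site of a locus was called at 3 of the 10 loci (Anpep, Snx22 and Tbc1d8), against 16.8% over all loci with several sites. Of the other 93 sites 19 were called, beside 16.5% of all sites, the strongest ones included. The last comparison asked whether the fold of a site departed from the common fold fitted to all sites of its locus, the site itself included. That difference does not depend on the scaling between libraries. By that test 13 of the 103 sites departed, 9 towards cDCs and 4 towards pDCs, where 8.84% of all sites in their loci did, 4.31% towards cDCs and 4.52% towards pDCs. At 16 of the 18 called cDC sites (88.9%) pDC replicate 1 was below pDC replicate 2, as it was at 3339 of 4241 (78.7%) of all sites called higher in cDCs. The part of this order in the folds was not tested. Of the 22 site calls, 10 held under every alternative that gave a value, and 12 of the 22 gave none where a mean of 30 counts was asked for. The other 12 calls were each lost in 1 to 6 alternatives, and not all of these are named at the single loci below.

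**Figure D2:**
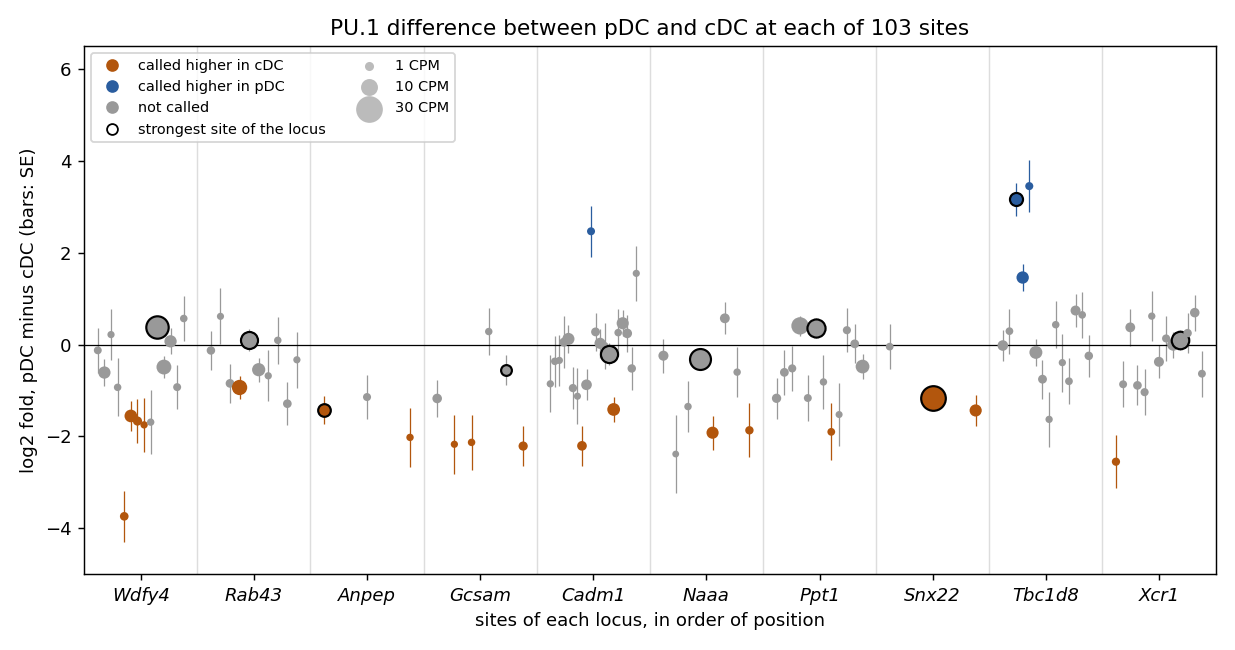
The 103 PU.1 sites of the 10 loci. Each point is 1 site in its order along the locus, the y axis is its log2 fold (pDC minus cDC) with bars of 1 SE, point size is the level in CPM, and black rings mark the strongest site of each locus. Brown marks the 18 sites called higher in cDCs, found at every locus except Tbc1d8, and blue the 4 called higher in pDCs, of which 3 are at Tbc1d8 and 1 at Cadm1.

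Wdfy4 encodes a BEACH-domain protein that cDC1s need to cross-present cell-associated antigen. Its locus (chromosome 14, 32959547 to 33193855) had 313 and 316 CPM in the cDC replicates and 240 and 253 CPM in the pDC replicates. Both cDC libraries were higher, and the log2 fold was -0.35 ± 0.11 (edgeR adjusted p = 0.0363). Of its 14 sites, 4 were called, all higher in cDCs and all inside the gene span. The site at 33162951 to 33163160, which lies 22.0 kb downstream of the start under the printed promoter, had 45 and 46 counts in cDCs, 2 and 2 counts in pDCs and 1 in the input. That is 4.12 and 3.97 CPM against 0.264 and 0.322 CPM. Both pDC libraries were far below both cDC libraries, and the fitted log2 fold was -3.74 ± 0.56 (edgeR adjusted p = 0.00012). It departed from the common fold of the locus by -3.40 (edgeR adjusted p = 7.63e-05).

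A second Wdfy4 site, at 33168751 to 33169110, had 9.69 and 9.76 CPM in cDCs and 2.11 and 4.66 CPM in pDCs. The pDC libraries differed from each other here but stayed below both cDC libraries (log2 fold -1.55 ± 0.32, edgeR adjusted p = 0.00179). The 2 further called sites were weaker, at 33171951 (log2 fold -1.67 ± 0.48) and 33172451 (-1.75 ± 0.59), with edgeR adjusted p = 0.0202 and 0.0441. The strongest site of the locus was the one that reaches over the printed promoter. Its strongest window lay 0.49 kb upstream of that start, still within the annotated gene span, and held 36.3% of the locus signal summed over strongest windows. It had 22.4 and 19.4 CPM in cDCs and 28.5 and 25.6 CPM in pDCs, the pDC libraries being the higher ones. Its log2 fold of 0.37 ± 0.21 was not called (edgeR adjusted p = 0.239). Yet it departed from the common fold of the locus by 0.71 (edgeR adjusted p = 0.0395), opposite in direction to the called sites. The locus also held 21 windows within 20 kb of Arhgap22. The locus call ended without cDC replicate 1 (-0.37), without cDC replicate 2 (-0.35) and where windows needed 30 counts on average (-0.18) and with 1 strongest window per site (-0.34), and the departure over the promoter ended without any 1 of the 4 libraries (0.57 to 0.84). Without pDC replicate 1 the sites at 33168751 and 33171951 came to -1.06 and -0.82, the latter not called, and without pDC replicate 2 they came to -2.20 and -3.30. Both weaker sites lost their calls without cDC replicate 1 (-1.65 and -1.89) or cDC replicate 2 (-1.66 and -1.60) and with the minimum fold, and the one at 33172451 also without pDC replicate 2 (-1.38).

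**Figure D3:**
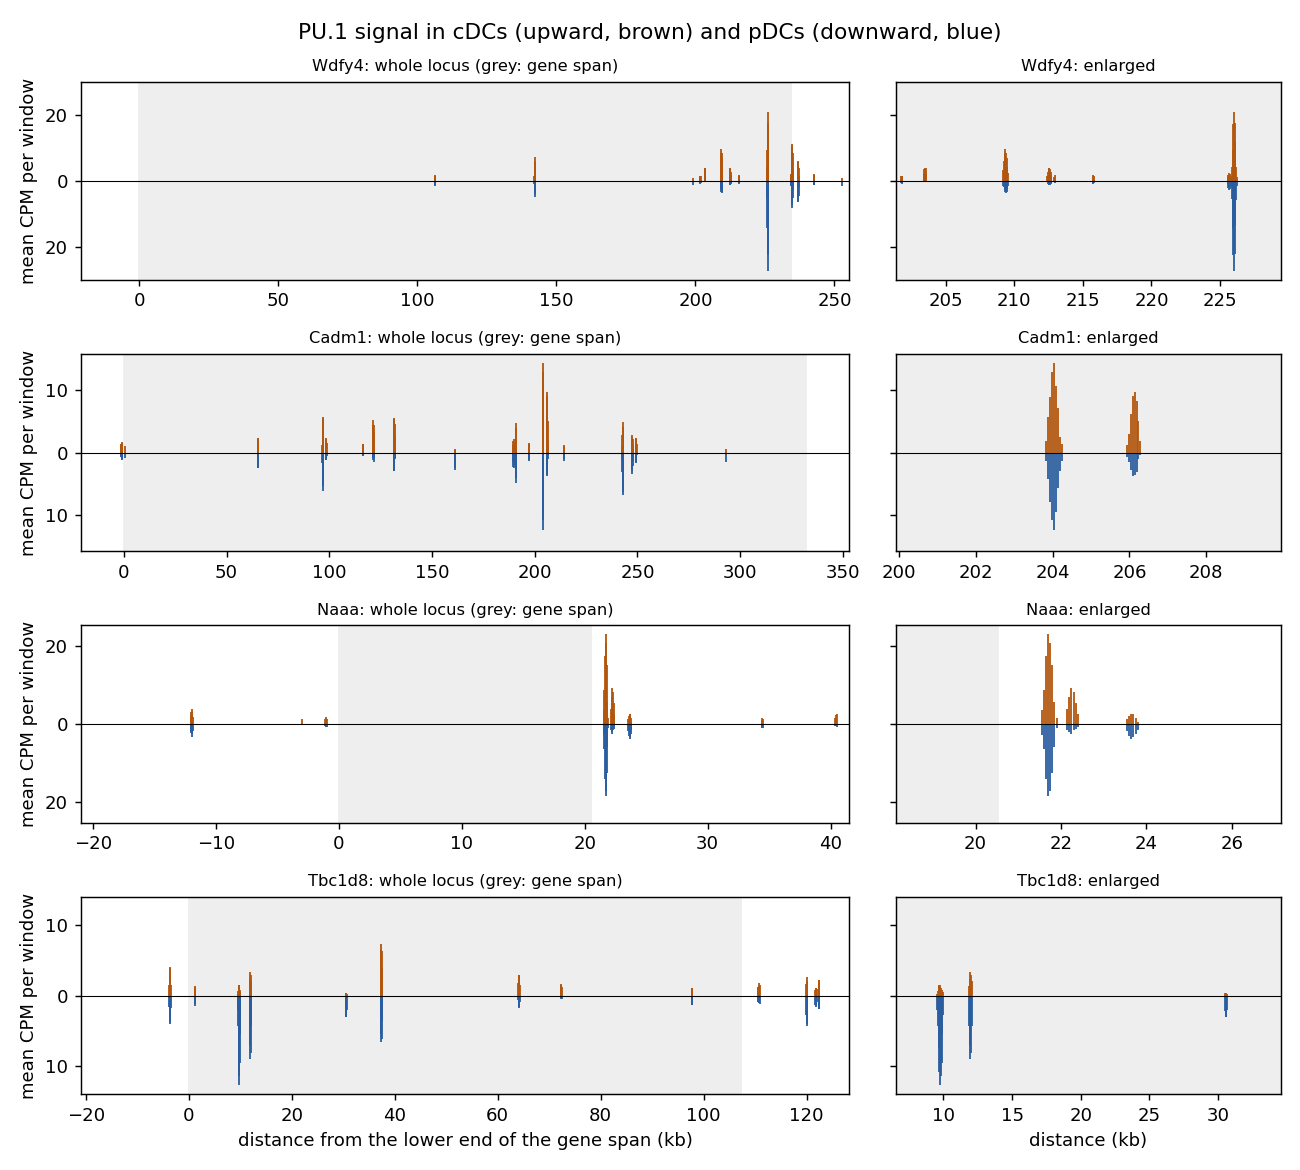
Mean CPM of the 2 cDC libraries (upward, brown) and of the 2 pDC libraries (downward, blue) in each tested window of 4 loci, against distance in kb from the lower end of the gene span (grey), with an enlarged stretch beside each. At Wdfy4, Cadm1 and Naaa the strongest site, not called, stands in the same locus as called sites that are taller in cDCs, and at Tbc1d8 the leftmost sites inside the gene are taller in pDCs.

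Rab43 encodes a small GTPase of vesicle traffic with a role in cross-presentation by mouse CD8+ dendritic cells. Its locus (chromosome 6, 87788853 to 87812164) had 198 and 188 CPM in cDCs and 145 and 130 CPM in pDCs. The groups did not overlap, and the log2 fold was -0.48 ± 0.13 (edgeR adjusted p = 0.0142). Of 10 sites 1 was called: at 87806101 to 87806360, inside the gene, cDCs had 15.2 and 12.0 CPM and pDCs 8.57 and 5.47 CPM (log2 fold -0.93 ± 0.26, edgeR adjusted p = 0.0153). About 1 kb away the strongest site, at 87807001 to 87807310, had 12.7 and 12.8 CPM in cDCs and 16.1 and 11.1 CPM in pDCs, so that the groups overlapped (0.10 ± 0.23, edgeR adjusted p = 0.823). Of the 47 windows, 42 lay within 20 kb of Isy1, which encodes a spliceosome component, so the locus value cannot be assigned to Rab43 alone. The locus call ended without cDC replicate 1 (-0.45), without cDC replicate 2 (-0.52), where windows needed 30 counts on average (-0.40) and with flanks of 50 kb (-0.30). The site call was lost in 5 of 15 alternatives, among them those without either cDC replicate (-0.77 and -1.10).

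Xcr1 encodes the receptor for the chemokine XCL1 and is a defining surface marker of cDC1s. Its locus (chromosome 9, 123852315 to 123862029) had 171 and 169 CPM in cDCs and 139 and 179 CPM in pDCs. The pDC libraries fell on either side of the cDC libraries, and the locus was not called (log2 fold -0.10 ± 0.14, edgeR adjusted p = 0.691). Of the 61 windows of the locus, 57 lay within 20 kb of Fyco1, so the locus value cannot be assigned to Xcr1 alone. The strongest of its 13 sites, 1.38 kb upstream of the start at 123863251 to 123863560, had 14.0 and 13.0 CPM in cDCs and 14.5 and 14.6 CPM in pDCs (0.11 ± 0.22, edgeR adjusted p = 0.796). The called site of the locus, at 123838501 to 123838710, lay in the span of the neighbour Fyco1, which encodes a protein of autophagosome transport. It had 3.11 and 3.02 CPM in cDCs and 0.132 and 0.965 CPM in pDCs. Both pDC libraries were far below the cDC libraries (log2 fold -2.55 ± 0.58, edgeR adjusted p = 0.00395). The site departed from the common fold of the locus by -2.45 (edgeR adjusted p = 0.00187). Without pDC replicate 2 the locus was called higher in cDCs (-0.29, edgeR adjusted p = 0.0157) and without pDC replicate 1 its fold was 0.08, and the site came to -4.42 and -1.65. The departure of the site was no longer called without pDC replicate 1 (-1.71) and came to -4.15 without pDC replicate 2.

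Cadm1 encodes an adhesion molecule carried by cDC1s that binds CRTAM on T cells. Its locus (chromosome 9, 47530170 to 47862280) had 291 and 316 CPM in cDCs and 223 and 249 CPM in pDCs, with no overlap (log2 fold -0.37 ± 0.12, edgeR adjusted p = 0.0388). Its 20 sites, 18 of them inside the gene, went both ways. At 47651551 to 47651860 cDCs had 5.30 and 4.92 CPM and pDCs 0.527 and 1.77 CPM (-2.20 ± 0.44, edgeR adjusted p = 0.00143). The site departed from the common fold of the locus by -1.96 (edgeR adjusted p = 0.00244). At 47691451 to 47691560 cDCs had 0.183 and 0.777 CPM and pDCs 2.77 and 2.73 CPM. This was a pDC site within the gene of a cDC1 marker (2.47 ± 0.55, edgeR adjusted p = 0.00365). It departed from the common fold of the locus by 2.71 (edgeR adjusted p = 0.000521).

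The strongest Cadm1 site, at 47734001 to 47734410, had 15.0 and 13.6 CPM in cDCs and 14.5 and 10.1 CPM in pDCs, which overlap (-0.21 ± 0.23, edgeR adjusted p = 0.608). The next site along the gene, at 47736101 to 47736460, had 9.42 and 9.93 CPM in cDCs and 3.56 and 3.70 CPM in pDCs (-1.41 ± 0.28, edgeR adjusted p = 0.00142), and it departed by -1.17 (adjusted p = 0.0137). Adjacent sites of this gene thus differed in whether the cell types were apart. The locus call ended without cDC replicate 1 (-0.43) or cDC replicate 2 (-0.30), and with 1 strongest window per site (-0.24). The pDC site lost its call in 3 of 14 alternatives. Without cDC replicate 1 it lost both its call and its departure (1.80 and 2.09), and without cDC replicate 2 these came to 3.80 and 4.00. The site at 47651551 came to -1.52 without pDC replicate 1 and to -3.25 without pDC replicate 2. The departure at 47651551 was not called without cDC replicate 1 (-1.85) or pDC replicate 1 (-1.36) and came to -2.92 without pDC replicate 2, and that at 47736101 was not called without either cDC replicate (-1.16 and -1.18).

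Anpep encodes CD13, an aminopeptidase on the surface of myeloid cells. Its locus (chromosome 7, 79821803 to 79848210) was the weakest of the 10, with 51.4 and 55.5 CPM in cDCs and 13.7 and 23.8 CPM in pDCs. Both pDC libraries were below 25 CPM and both cDC libraries above 50 CPM, and this locus had the most negative fold of the 10 (log2 fold -1.52 ± 0.25, edgeR adjusted p = 0.000619). Its strongest site, inside the gene at 79846651 to 79846960, had 8.96 and 9.93 CPM in cDCs and 2.64 and 4.50 CPM in pDCs (-1.43 ± 0.30, edgeR adjusted p = 0.00230). A site upstream of the gene, at 79851451 to 79851560, had 1.74 and 1.90 CPM in cDCs and 0.132 and 0.804 CPM in pDCs (-2.02 ± 0.64, edgeR adjusted p = 0.0317). The remaining site had a log2 fold of -1.14 and was not called. No other protein-coding gene lay within 20 kb of these windows. The upstream site lost its call in 5 of 14 alternatives, among them those without cDC replicate 1 (-2.08), cDC replicate 2 (-1.94) or pDC replicate 1 (-1.17). It came to -3.67 without pDC replicate 2.

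Naaa encodes a lysosomal amidase that breaks down N-acylethanolamines. Its locus (chromosome 5, 92257660 to 92278181) had 180 and 168 CPM in cDCs and 125 and 122 CPM in pDCs, with no overlap (log2 fold -0.50 ± 0.13, edgeR adjusted p = 0.0132). None of its 8 sites lay inside the gene. The strongest, 1.18 kb upstream of the start at 92279201 to 92279560, had 24.1 and 21.9 CPM in cDCs and 21.5 and 15.6 CPM in pDCs (-0.31 ± 0.22, edgeR adjusted p = 0.376). The site beside it, 1.73 kb upstream at 92279801 to 92280060, had 10.5 and 7.95 CPM in cDCs and 1.19 and 3.86 CPM in pDCs. Here both pDC libraries were well below (-1.92 ± 0.37, edgeR adjusted p = 0.00108), and the departure from the common fold of the locus was -1.35 (edgeR adjusted p = 0.0109). A further called site, at 92298051 to 92298310 in the span of Sdad1, which encodes a protein of ribosome assembly, differed by -1.87 ± 0.59 on the log2 scale (edgeR adjusted p = 0.0319). This site straddles the edge of the locus, and its strongest window lies 20.02 kb from the gene span, just outside it. Of the 36 windows of the locus, 26 lay within 20 kb of Sdad1 and 10 within 20 kb of Ppef2. The locus of Sdad1 was itself called higher in cDCs (-0.54, edgeR adjusted p = 0.00771), and that of Ppef2 was not called. The locus value thus cannot be assigned to Naaa alone. When windows up to 500 bp apart were joined, the pair of upstream sites became 1 site with a fold of -0.31 that was not called. Without cDC replicate 1 or 2 the locus call ended (-0.45 and -0.55), as did the departure (-1.18 and -1.46), which was not called without pDC replicate 1 either (-0.64) and came to -2.41 without pDC replicate 2. Without pDC replicate 1 or 2 the site 1.73 kb upstream came to -1.25 and -2.95 and the Sdad1 site to -0.89, not called, and -4.38. In all, the Sdad1 site lost its call in 5 of 14 alternatives.

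Ppt1 encodes palmitoyl-protein thioesterase, a lysosomal enzyme that removes fatty acids from proteins. Its locus (chromosome 4, 122836077 to 122859175) had 217 and 207 CPM in cDCs and 208 and 219 CPM in pDCs. The 4 libraries interleaved, and the log2 fold was 0.01 ± 0.12 (edgeR adjusted p = 0.970). The strongest of the 12 sites, inside the gene at 122853651 to 122853960, had 14.5 and 12.0 CPM in cDCs and 16.4 and 17.7 CPM in pDCs (0.36 ± 0.22, edgeR adjusted p = 0.291). The called site, at 122858151 to 122858260, was a low one, with 2.65 and 1.81 CPM in cDCs and 0.132 and 1.13 CPM in pDCs (-1.90 ± 0.62, edgeR adjusted p = 0.0371). Its call was lost in 5 of 14 alternatives, among them those without cDC replicate 1 (-1.60) and without pDC replicate 1 (-0.97). It came to -3.96 without pDC replicate 2. Of the locus windows, 74.6% also lay within 20 kb of Cap1, which encodes an actin-regulating protein.

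Snx22 encodes a sorting nexin, a membrane-binding protein of endosomal sorting. Its locus (chromosome 9, 66065174 to 66069759) had 220 and 202 CPM in cDCs and 83.5 and 103 CPM in pDCs. Both pDC libraries were far below both cDC libraries, and this call had the smallest p of the 10 (log2 fold -1.18 ± 0.14, edgeR adjusted p = 6.14e-05). One site carried 80.1% of the signal summed over strongest windows: 3.25 kb upstream of the start, at 66072801 to 66073160, it had 43.5 and 37.5 CPM in cDCs and 16.7 and 19.6 CPM in pDCs. It was the strongest site at any of the 10 loci, above 99.8% of all sites in level, and its log2 fold was -1.16 ± 0.21 (edgeR adjusted p = 0.000699). A second site, 12.4 kb upstream at 66082051 to 66082310, had 8.51 and 8.64 CPM in cDCs and 1.85 and 4.66 CPM in pDCs (-1.43 ± 0.34, edgeR adjusted p = 0.00501). All 18 windows also lay within 20 kb of Ppib, which encodes a cyclophilin of the endoplasmic reticulum, and 14 within 20 kb of Snx1, which encodes a retromer-associated nexin, so the signal cannot be assigned to Snx22 alone. The call of the strongest site was lost in 2 of 15 alternatives, among them that without cDC replicate 1 (-1.05). The second site came to -2.21 without pDC replicate 2.

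Tbc1d8 encodes a TBC-domain protein, of the family that switches off Rab GTPases. Its locus (chromosome 1, 39371495 to 39478778) had 120 and 122 CPM in cDCs and 219 and 186 CPM in pDCs. It was the only locus of the 10 in which both pDC libraries were above both cDC libraries and the difference was called (log2 fold 0.75 ± 0.13, edgeR adjusted p = 0.00106). The strongest of its 14 sites, at 39381051 to 39381460, had 1.65 and 1.21 CPM in cDCs and 17.1 and 8.20 CPM in pDCs. Its log2 fold was 3.16 ± 0.36, which is 8.93-fold higher in pDCs (edgeR adjusted p = 1.03e-05). It departed from the common fold of the locus by 2.50 (edgeR adjusted p = 8.51e-08). This site lay inside the gene but 97.5 kb from its start and only 13.4 kb from the start of Rpl31, which encodes a ribosomal protein. Of the 64 windows of the locus, 22 lay within 20 kb of Rpl31 and 17 within 20 kb of Npas2, a circadian factor gene, whose own loci had log2 folds of 1.60 and 0.96 and were called higher in pDCs, so the signal cannot be assigned to Tbc1d8 alone.

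A second site, at 39402001 to 39402160, had 0.366 and 0.173 CPM in cDCs and 2.90 and 3.22 CPM in pDCs (3.45 ± 0.57, edgeR adjusted p = 0.000297). It too departed from the common fold of the locus, by 2.79 (edgeR adjusted p = 0.000779). Another, at 39383351 to 39383560, had 3.11 and 3.46 CPM in cDCs and 10.3 and 7.72 CPM in pDCs (1.46 ± 0.29, edgeR adjusted p = 0.00140). The remaining 11 sites were not called and lay on both sides of 0, the lowest at -1.63, and the median of the 14 sites was 0.14. Of these, the sites at 39435501 and 39443801 departed towards cDCs from the common fold of the locus, which includes the called pDC sites. They did so by -1.41 and -2.29 (edgeR adjusted p = 0.0262 and 0.00715), and they were picked out after their values were seen. Without cDC replicate 1 the locus call ended (0.73, edgeR adjusted p = 0.0566), and without cDC replicate 2 the departure of the site at 39402001 was not called (2.37). The strongest site came to 2.52, and its departure to 1.88, without pDC replicate 1. The site at 39383351 lost its call in 1 of 15 alternatives.

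Gcsam encodes a signalling adaptor first known from germinal centre B cells. Its locus (chromosome 16, 45610440 to 45622867) had 67.3 and 64.4 CPM in cDCs and 22.4 and 35.9 CPM in pDCs, with no overlap (log2 fold -1.18 ± 0.22, edgeR adjusted p = 0.00142). Of its 6 sites 3 were called, all higher in cDCs. The one with the smallest p, at 45628551 to 45628760, had 3.84 and 5.01 CPM in cDCs and 0.659 and 1.29 CPM in pDCs (-2.21 ± 0.44, edgeR adjusted p = 0.00151), and it lay in the span of the neighbour BC016579. The called sites inside the gene were lower still: at 45614351 to 45614460 cDCs had 1.28 and 2.07 CPM and pDCs 0.264 and 0.483 CPM (-2.17 ± 0.65, edgeR adjusted p = 0.0234), and at 45616051 to 45616160 the fold was -2.13 ± 0.60 (edgeR adjusted p = 0.0177). The strongest site, at 45623301 to 45623560, had 5.12 and 5.01 CPM in cDCs and 2.64 and 4.34 CPM in pDCs and was not called (-0.56 ± 0.33, edgeR adjusted p = 0.272). All windows also lay within 20 kb of BC016579, and 20 of the 25 within 20 kb of Slc9c1, a sodium-proton exchanger gene. Where windows needed 30 counts on average, the locus fold was -0.53 and not called. The calls of the sites inside the gene ended without cDC replicate 1 (-2.47 and -1.95), cDC replicate 2 (-1.77 and -2.29) or pDC replicate 1 (-1.78 and -1.59), the second came to -2.84 without pDC replicate 2, and the strongest site was called without pDC replicate 2 (-0.94, edgeR adjusted p = 0.0456).

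Other genes of cDC1 identity and of cross-presentation were counted from lists taken from textbook knowledge, chosen with earlier results of these data known. Of 24 further cDC1 loci, 5 were higher in cDCs, none in pDCs, and 19 missed the threshold. Their median log2 fold was -0.21 against 0.05 over all loci. The share called was 20.8%, against 18.9% of all loci. Those called were Itgae, which encodes the integrin CD103 (-0.96 ± 0.13), Fgd6 (-0.89 ± 0.15), the Toll-like receptor genes Tlr3 (-0.60 ± 0.14) and Tlr11 (-0.44 ± 0.14), and Cd24a, which encodes a surface glycoprotein (-0.55 ± 0.15). Their edgeR adjusted p-values were 0.000179, 0.000712, 0.00608, 0.0413 and 0.0152 in that order. At an unadjusted p under 0.05, edgeR and DESeq2 each placed 1 of the 24 higher in pDCs. Itgae and Tlr3 are also among the cDC1 markers counted above. With library sizes from the repeat windows edgeR called 0 of the 24, and 3 were lower in pDCs at an unadjusted p under 0.05.

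Of 36 further cross-presentation loci, 6 were higher in pDCs and 1 in cDCs, which is 19.4% called, and 29 were not. Their median was 0.11. On the pDC side were Rab34, a small GTPase gene (1.33 ± 0.21), Tapbpl, which encodes a peptide editor of MHC class I (0.93 ± 0.17), and Sec61b, a translocon subunit gene (0.77 ± 0.25). The same side held Cyba, which encodes a subunit of the phagosomal NADPH oxidase (0.51 ± 0.15), the peptide transporter gene Tap2 (0.46 ± 0.15) and the immunoproteasome gene Psmb8 (0.44 ± 0.14). Their edgeR adjusted p-values were 0.000557, 0.00150, 0.0362, 0.0279, 0.0371 and 0.0395. The spans of Tap2 (34204479 to 34216321) and Psmb8 (34198195 to 34201454) are close on chromosome 17. Their loci overlap, so these calls are not separate results. In Sec61b 91.7% of the windows also lay within 20 kb of another gene, and in the others of this side 100% did. The 1 locus on the cDC side was Rab11a, which encodes a GTPase of recycling endosomes (-0.46 ± 0.14, edgeR adjusted p = 0.0263). The shares called in both lists were near the 18.9% of all loci, and DESeq2 called 3 of the 36 higher in pDCs and 2 higher in cDCs. With library sizes from the repeat windows edgeR called 0 of the 36, and 0 had an unadjusted p under 0.05.

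**Figure D4:**
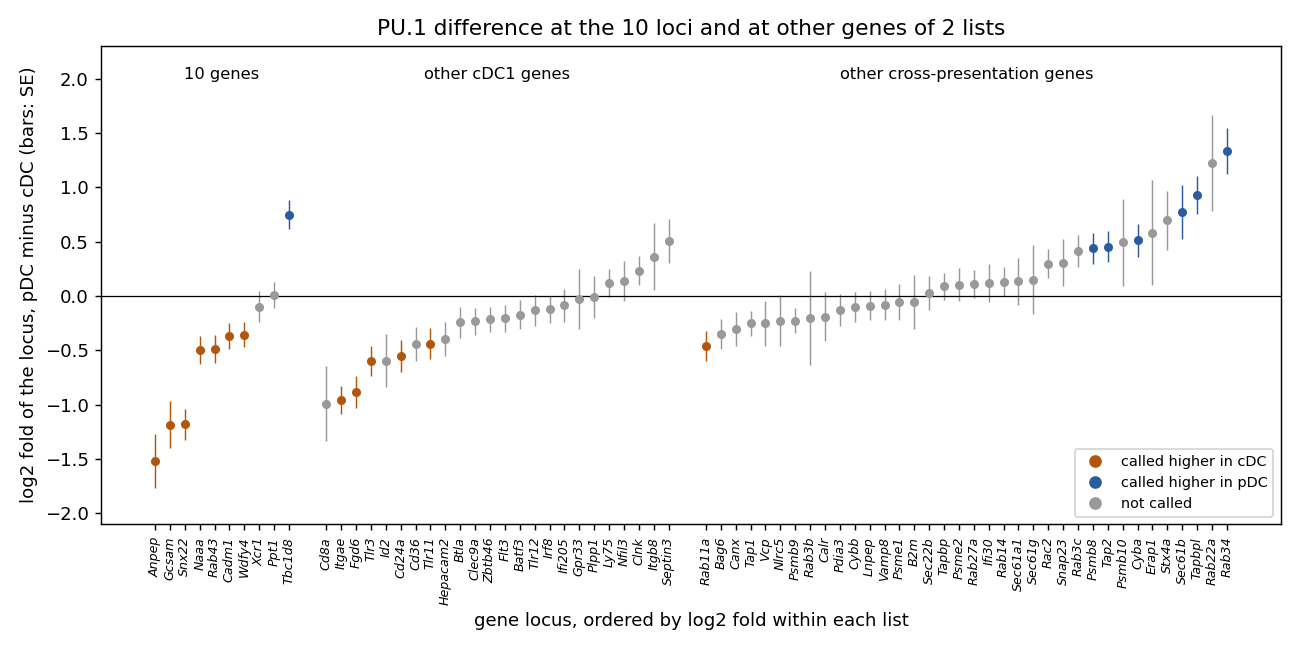
Log2 fold (pDC minus cDC) of each measured locus of the 10 genes, of 24 further cDC1 genes and of 36 further cross-presentation genes. Each point is 1 locus with a bar of 1 SE, ordered by fold within its list and coloured by its call (brown cDC, blue pDC, grey not called). The called cDC1 loci lie below 0 and 6 of the 7 called cross-presentation loci lie above it.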

How the data were processed

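The authors deposited raw read counts in genomic windows for 4 PU.1 libraries and 1 input library, without normalisation, in windows of 10 bp on a 50 bp grid. Subread 1.4.4 and mm10 are named in the submitters' processing notes. The step that Subread did, and the choice of windows, are not given in those sources. Every deposited window held at least 33 counts over the 5 libraries. The series text calls the replicates biological, and no shared animal or day is given. The genes and lists were chosen with earlier results of these data known.

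Windows were kept by the edgeR function filterByExpr at a minimum count of 10 (286435 of 329996). Kept windows no more than 100 bp apart formed sites, split at 5000 bp, and a site took the counts of its window with the highest mean CPM over both cell types. A locus took the sum of kept windows within 20 kb of a RefSeq gene span (GRCm38.p6), and one window can count for several genes. Loci and sites were each fitted as a whole in edgeR 4.0.16 (quasi-likelihood test; limma 3.58.1, GenomicRanges 1.54.1, R 4.3.3), with TMM library sizes from the windows and no term but cell type. Calls were made at a Benjamini-Hochberg adjusted p under 0.05. The departure of a site from its locus was tested with the edgeR function diffSpliceDGE. The biological coefficient of variation was 0.14 for loci and 0.162 for sites. With 2 libraries against 2, an exact permutation test cannot go below p = 0.333, so no value was tested on its own. The input has no replicate and entered no test. All 10 genes are named, with the strongest site and every called site of each (at most 4 in a direction, none had more), and list genes are named where called. The GGAA core was added to the motifs after the data were seen. Alternatives used other scalings, filters, locus and site definitions, DESeq2 1.42.0, a minimum fold of 1.5, a replicate block, and each PU.1 library left out. Where 1 library was left out, the lone library of its cell type was assumed to vary like the other pair. The scripts were tested on simulated data. The mean chi-square per window between replicates was 1.44 for cDCs and 3.18 for pDCs, so within a pair the counts differed by more than counting error.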

Additional observations from a re-analysis of the deposited data

How the results depend on the processing

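Over all loci 3070 were called, against 96 with library sizes from repeat windows, 558 with a minimum fold of 1.5 and 1766 with the gene span alone, in which Naaa and Snx22 held no windows. Of the 10 loci 8 were called, against 0, 5 and 3 with repeat windows (3 at an unadjusted edgeR p under 0.05), with a mean of at least 30 counts and with the minimum fold. Over all sites 9997 were called, against 4798 with repeat windows (1069 pDC, 3729 cDC), 4719 with a mean of 30 counts (2221 pDC, 2498 cDC), 3021 with DESeq2 (2094 pDC, 927 cDC) and 4911 with the minimum fold. Of the 103 sites 22 were called, against 10, 13 and 14 with the mean of 30 counts, DESeq2 and the minimum fold. Departures from the locus were 6556 over all and 13 of the 103, against 2273 and 6 with the mean of 30 counts. Leaving out each library in turn gave 875 to 6590 loci, 3 to 9 of the 10, 3579 to 16171 sites, 12 to 38 of the 103, and 1036 to 11714 departures, 4 to 32 of the 103. The highest count of each came without pDC replicate 2 and the lowest without cDC replicate 1. The medians moved to -0.46 (loci) and -0.53 (sites) with repeat windows.

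The Ppt1 locus turned from 0.01 to -0.12 with library totals, -0.53 with repeat windows, -0.0029 without a filter, -0.036 with DESeq2, -0.053 with flanks of 50 kb and -0.072 with 1 window per site, and ran from -0.032 to 0.047 over left-out libraries. The Xcr1 locus turned from -0.10 to 0.035 with a mean of 30 counts, 0.12 with the gene span alone, 0.027 with flanks of 10 kb and 0.12 with windows given to the nearest gene, and ran from -0.29 to 0.076 over left-out libraries. None of these values was called except that of Xcr1 without pDC replicate 2. With library totals the strongest sites of Rab43 and Xcr1 came to -0.024 and -0.020, and with repeat windows to -0.37 and -0.42, and those of Wdfy4 and Ppt1 to -0.13 and -0.18. Over left-out libraries the strongest Rab43 site ran from -0.20 to 0.33 and that of Cadm1 from -0.50 to 0.017. The cause was not tested.

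The difference between replicates 1 and 2 in cDCs correlated with that in pDCs at r = 0.0226 over 60527 sites. This shows no shared shift by replicate number, but it cannot tell whether the libraries were prepared in pairs. A replicate block gave 3363 loci, 8 of the 10, 10656 sites, 27 of the 103, 5236 departures and 11 of the 103, and the departures of the strongest Wdfy4 site and of the Ppt1 site at 122858151 were not called under it. The pDC libraries have the fewest counts, so a site at 1 or 2 pDC counts has an imprecise fold.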

Other observations

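Loci of textbook markers of other cell types, taken from lists chosen with earlier results known, were measured alongside. Of 11 loci of type 2 cDC markers, 2 were higher in pDCs, 1 was higher in cDCs and 8 were not called (edgeR adjusted p). That is 27.3% called. Over all loci 18.9% were called, 11.0% higher in pDCs and 7.87% higher in cDCs. Clec10a, a C-type lectin gene, had 16.5 and 16.8 CPM in cDCs and 41.3 and 36.0 CPM in pDCs, a log2 fold of 1.22 ± 0.23. Mgl2, the gene of a related lectin, had 76.0 and 72.0 CPM in cDCs and 43.8 and 47.1 CPM in pDCs, a log2 fold of -0.70 ± 0.17. Sirpa, an inhibitory receptor gene, had 284 and 295 CPM in cDCs and 403 and 398 CPM in pDCs, a log2 fold of 0.47 ± 0.11. These lectin loci differed in opposite directions, each without overlap between the cell types.

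Of 10 pDC marker loci, the 5 higher in pDCs were Bst2, which encodes tetherin (2.52 ± 0.35), Spib, an ETS factor gene (1.37 ± 0.20), Ly6d (1.24 ± 0.22), Ptprf (1.18 ± 0.18) and Siglech, a pDC lectin gene (0.88 ± 0.15). At Bst2 the cDC libraries had 3.38 and 4.23 CPM and the pDC libraries 26.4 and 17.4 CPM. Of 5 B cell marker loci, only that of Pax5, a B cell factor gene, was called, with 50.4 and 54.0 CPM in cDCs and 111 and 98.6 CPM in pDCs (1.01 ± 0.16). That 1 call is 20% of the list, near the 18.9% called among all loci. Of 5 macrophage marker loci 0 were called by edgeR or by DESeq2, and at an unadjusted edgeR p under 0.05 there was 1 in each direction. With library sizes from the repeat windows edgeR called 0 of the loci of these 4 lists, and 1 pDC marker locus had an unadjusted p under 0.05.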
